A study of Mus musculus with 4 samples.

Results

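Arg1+ tumor macrophages are cells from tumors with macrophage transcripts that also carry the message of arginase 1, the enzyme that splits arginine into ornithine and urea. They were chosen by counts of unique molecular identifiers (UMIs, 1 for each captured transcript) in single-cell libraries. A member had at least 300 genes, at least 500 UMIs, at most 20% mitochondrial UMIs, at least 5 UMIs of C1qa, C1qb and C1qc together and at least 2 UMIs of Arg1. It had no UMI of Cxcl9, at most 1 of Cd3d, Cd3e and Cd3g, at most 2 of Mki67 and Top2a, and at most 2 of Ly6c2 and Plac8. The rule took 5951 of 59732 barcodes, or of 56088 that passed the filters on genes, UMIs and mitochondrial share. Without the Arg1 and Cxcl9 terms the gate held 21684 macrophages.

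The cells came from 4 libraries, 1 for each pairing of host genotype, wild-type (WT) or Lrrc25-/-, with tumor model. The models were B16F10, a melanoma line, collected on day 14 after inoculation, and MC38, a colon carcinoma line, collected on day 26. Each library pooled pieces of 100 mm3 from the tumors of 3 mice, with CD45+ cells from magnetic beads added back to the unsorted suspension at 5 to 1. The hosts had no further treatment, and the labels name the cells only as tumor cells, with no strain, age or design of the Lrrc25 deletion. Values below follow 1 order of libraries, namely WT B16F10, Lrrc25-/- B16F10, WT MC38 and Lrrc25-/- MC38. The order gave 394, 764, 3180 and 1613 members. The tumor model cannot be told apart from the day of collection, nor from the sex of the hosts, since Xist was at 0 in B16F10 and averaged 607 UMIs per 1000000 in MC38 members.

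Macrophages in tumors arise largely from blood monocytes and change with what surrounds them. Arginase 1 competes with inducible nitric oxide synthase for arginine and is widely used as a mark of macrophages that feed tissue repair and hold back T cells. Low oxygen, lactate and interleukin signals are known to raise it. Cxcl9, a chemokine that draws T cells, is induced by interferon gamma and marks macrophages at the other arm of the rule. Lrrc25 is a leucine-rich repeat membrane protein of myeloid cells, and the study asked what its loss in the host does to macrophages and CD8+ T cells in tumors.

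Lrrc25 followed the labels in these cells. It measured 89.8, 3.04, 78.8 and 2.09 CPM (UMIs of a gene per 1000000 UMIs of the summed cells), from 334, 24, 1280 and 22 UMIs. The Lrrc25-/- level over WT was 0.0338 (exact 95% interval 0.0214 to 0.0512) in B16F10 and 0.0265 (0.0166 to 0.0403) in MC38. The libraries read the 3' end, so the remaining UMIs do not say which part of the gene was deleted.

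The macrophage label fitted other macrophage markers, although Mertk was low in B16F10. Csf1r, the receptor for macrophage colony-stimulating factor, measured 150, 190, 222 and 282 CPM, and Adgre1, which encodes F4/80, 118, 146, 190 and 141 CPM. Lyz2, the myeloid lysozyme, measured 3924, 6232, 5829 and 7850 CPM. Mertk stood at 9.41, 16.1, 94.8 and 96.45 CPM. The genes of the rule are a description only. C1qa measured 1386, 1586, 1999 and 2593 CPM, and Arg1 1807, 2632, 3817 and 2691 CPM. The basophil and mast cell genes Mcpt8 and Ms4a2 and the epithelial genes Krt8 and Krt19 were at 0 in all 4 libraries. Summed melanoma markers were at 1483 and 1626 CPM in the B16F10 libraries and 89.2 and 67.7 CPM in MC38. Nearly all of the MC38 sums was Mitf, at 88.5 and 66.9 CPM, while Pmel was at 0.62 and 0.76 CPM there. Summed neutrophil markers were between 60.2 and 219 CPM and summed T cell markers between 10.2 and 22.8 CPM. Summed monocyte markers were at 494, 458, 449 and 419 CPM. Most of that was F13a1, at 421, 363, 376 and 352 CPM.

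Depth differed between the libraries. The totals were between 105338548 and 138841749 UMIs, and members had medians of 8206, 8692, 4865 and 6707 UMIs and of 1984, 2097, 1898 and 2255 genes. Their median mitochondrial share was 0.199% and 0.438% in B16F10 and 2.33% and 2.27% in MC38. Pairs of libraries shared between 96 and 247 barcode sequences, but shared at most 4 among members, and each library was treated as separate cells. With 1 pool for each pairing, no p-value below measures the spread between mice. In the comparisons of classes it measures the spread of within-pool differences over the 4 pools. In the fits of tumor model or genotype on Arg1+ cells no pool had a replicate. The spread there is what the 2 terms leave over, with information shared between genes.

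The comparison used 3 classes from the same gate. Beside the Arg1+ cells these were macrophages with neither Arg1 nor Cxcl9 (2360, 1962, 603 and 710 cells) and Cxcl9+ macrophages, with at least 2 UMIs of Cxcl9 and no Arg1 (180, 202, 586 and 899). Cells with at least 2 UMIs of Arg1 and any Cxcl9 belonged to none of the 3 classes, and they numbered 42, 72, 2244 and 2522. The bulk of these lay in MC38, where the combination was more common than Arg1 alone in the Lrrc25-/- library. Median depth was 8212, 8199, 2781 and 2922 UMIs in the cells with neither gene and 9201, 9436, 4325 and 5805 in Cxcl9+ cells.

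**Figure D1:**
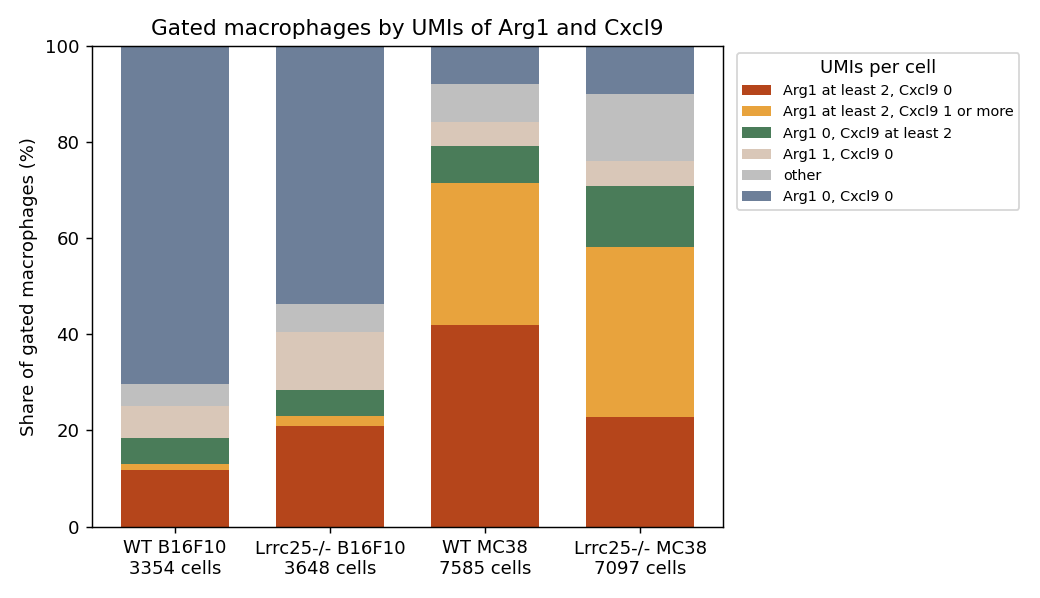
Composition of the gated macrophages of each library by Arg1 and Cxcl9 UMIs, in percent of gated cells (vertical axis, from 0 to 100), with 1 stacked bar for each library. Arg1+ cells without Cxcl9 make up 11.7%, 20.9%, 41.9% and 22.7%, and cells with both genes are a large block only in the MC38 bars.

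Arg1+ cells were 11.7% (exact binomial 95% interval 10.7% to 12.9%) and 20.9% (19.6% to 22.3%) of gated macrophages in the WT and Lrrc25-/- libraries of B16F10. In MC38 they were 41.9% (40.8% to 43.0%) and 22.7% (21.8% to 23.7%). The share was thus higher in the Lrrc25-/- pool of B16F10 and lower in that of MC38, beyond counting error, with 1 pool on each side and no test of the genotypes. With each gated cell thinned to 3000 UMIs the shares were 8.95%, 18.5%, 47.0% and 28.4%, which left out 21, 96, 652 and 276 members of lower depth. The MC38 difference holds 2 terms of the rule. Cells with at least 2 UMIs of Arg1, whatever their Cxcl9, were 12.999%, 22.9%, 71.5% and 58.3% of gated macrophages. Among those Arg1 cells Cxcl9 was seen in 9.63%, 8.61%, 41.4% and 61.0%, so in MC38 more of the Lrrc25-/- cells left the class by the Cxcl9 term.

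Arg1 UMIs were also seen in cells that should lack the gene. T cells with at least 2 UMIs of Arg1 were 6.60%, 2.63%, 4.98% and 3.78% of 515, 1141, 803 and 1351 T cells, whose median depths were 6150, 3399, 4691 and 4016 UMIs. At 3000 UMIs a cell, the WT B16F10 share in T cells was 7.27% (4.89% to 10.3%), and that of gated macrophages with Arg1, whatever their Cxcl9, was 9.61% (8.58% to 10.7%). These intervals overlapped, so part of the WT B16F10 class cannot be told apart from free RNA by the share alone. In the other 3 libraries the T cell share at that depth was between 2.13% and 2.56%, far below the macrophage shares.

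The Arg1 term runs through a continuous range. The median member had 8, 13, 12 and 10 Arg1 UMIs, and the highest had 161, 283, 151 and 191. Exactly 2 UMIs, the edge of the rule, were carried by 14.7%, 15.6%, 9.59% and 13.9% of members. Spp1, which encodes the secreted phosphoprotein osteopontin, measured 493, 979, 1034 and 481 CPM in gated cells with 1 Arg1 UMI, just outside the rule, and 1169, 1180, 1099 and 740 CPM in members with 2. For Spp1 the step was largest in WT B16F10, then in Lrrc25-/- MC38, and small in the other 2 libraries. Cxcl3 measured 211, 369, 206 and 97.2 CPM just outside the rule and 558, 1024, 235 and 84.7 CPM in members with 2, so it stepped up in both B16F10 libraries and little or not at all in MC38.

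Within the members some other genes were graded with Arg1. The bins were cut on Arg1, a gene of the rule, and are a description only. After thinning to 3000 UMIs, Spp1 measured 1854, 1906, 1318 and 762 CPM in members left with 0 or 1 Arg1 UMI and 5806, 7120, 3835 and 2382 CPM in those with 20 or more. Fn1, which encodes the matrix protein fibronectin, measured 149, 143, 412 and 447 CPM in the lowest bin and 569, 1485, 1444 and 1537 CPM in the highest. Cxcl3, a chemokine that draws neutrophils, went from 965, 1315, 203 and 122 CPM to 4056, 5900, 752 and 1214 CPM. All 3 genes were higher in the top bin than in the bottom bin of every library. Mmp12 was not graded alike, going from 2570 and 1530.5 CPM to 3028 and 1454 CPM in B16F10. In MC38 it went from 689 and 514 CPM to 2172 and 1307 CPM. H2-Ab1, a chain of the MHC class II molecule, was lower in the top bin in MC38, going from 1331 and 2010 CPM to 694 and 1311 CPM, and in Lrrc25-/- B16F10, from 608 to 326 CPM, but not in WT B16F10, at 710 and 806 CPM. Pmel, a tumor cell gene, was also lower toward the top of these bins in B16F10, going from 588 and 911 CPM to 167 and 117 CPM, and its part in the grading was not tested. The top bin held 24, 97, 433 and 103 members, so its WT B16F10 values rest on few cells.

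**Figure D2:**
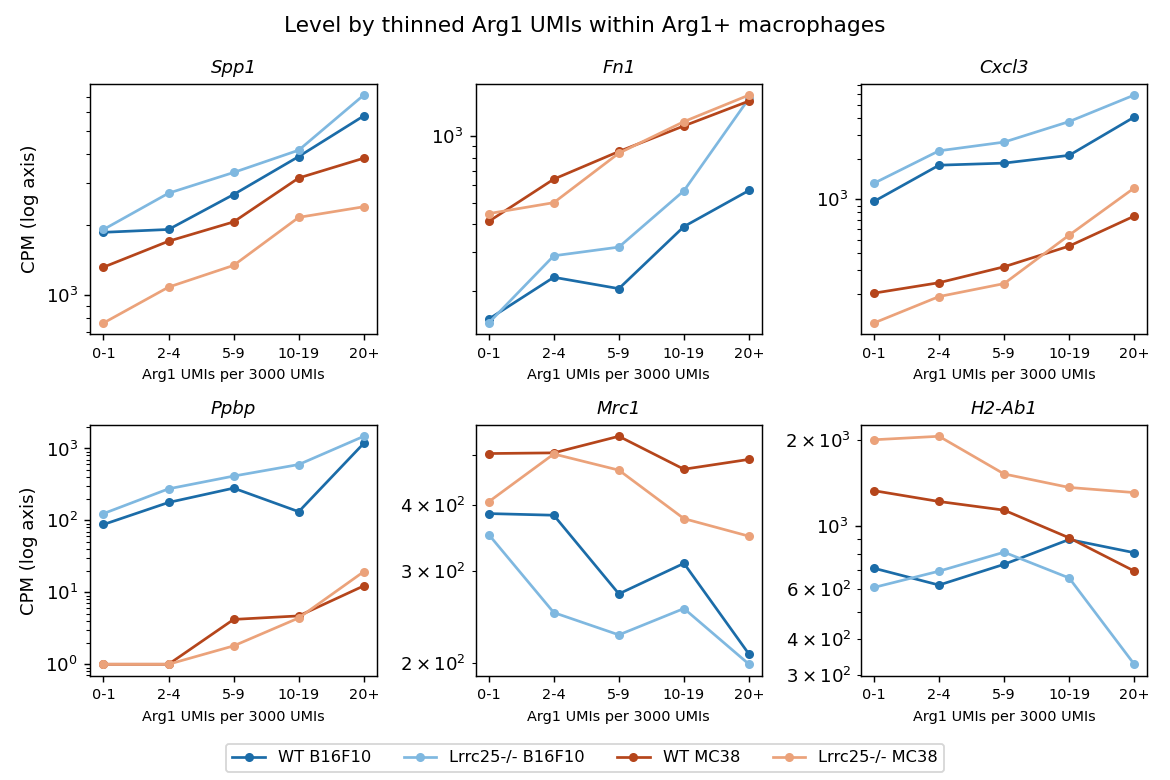
Level of selected genes (vertical axis, CPM on a log axis, values under 1 CPM drawn at 1) in members thinned to 3000 UMIs, by the number of Arg1 UMIs left (horizontal axis), with 1 line for each library. Spp1, Fn1 and Cxcl3 are higher in the bin of 20 or more Arg1 UMIs than in the bin of 0 or 1 in all 4 libraries, and H2-Ab1 is lower there in both MC38 libraries and Lrrc25-/- B16F10.

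Against Cxcl9+ macrophages, Arg1+ cells carried more message for Spp1, Fn1, Mmp12 and Ppbp and less for MHC class II genes. Of 10612 genes tested with edgeR on summed UMIs, with library as a block, 737 were higher in Arg1+ cells (6.94%) and 653 were lower (6.15%), at an adjusted p of 0.05. The median log2 fold over all these genes was 0.01. Genes of the rule took no part. The count of lower genes was 432 without the WT MC38 library and 426 without the Lrrc25-/- MC38 library.

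Spp1 measured 2318, 3393, 2901 and 1693 CPM in Arg1+ cells and 265, 396, 289 and 203 CPM in Cxcl9+ cells. No library of the one class reached any of the other, and the log2 fold was 3.28 ± 0.10 (SE, 4 libraries; edgeR adjusted p = 1.1e-06). The SE here and below is the log2 fold over the root of edgeR's F statistic. It is not the spread of the libraries' own folds. Fn1 measured 208, 389, 961 and 836 CPM against 8.56, 16.6, 150 and 131 CPM, a log2 fold of 3.45 ± 0.32 (edgeR adjusted p = 0.00024). The classes did not overlap, although Fn1 was higher in MC38 than in B16F10 within each of them. Mmp12, the macrophage elastase, measured 3355, 2067, 1340 and 726 CPM against 566, 173, 125 and 86.4 CPM (log2 fold 3.28 ± 0.17). Ppbp, the precursor of the neutrophil-attracting chemokine CXCL7, reached 192 and 459 CPM in Arg1+ cells of B16F10 but only 6.16 and 3.71 CPM in MC38. In Cxcl9+ cells Ppbp was at 3.43, 2.93, 0 and 0 CPM, and its log2 fold in the edgeR fit was 6.84 ± 0.26. The libraries were far less alike, since their own log2 folds, after adding 1 CPM, averaged 4.35 with an SD of 2.19.

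The other named genes on the higher side had log2 folds between 2.26 and 2.98. They were Cxcl3, the lysosomal cysteine proteases Ctsk and Ctsl, the chemokine Ccl6, caveolin-1 (Cav1), the ubiquitin ligase Rnf128, syndecan-1 (Sdc1) and the antiprotease Slpi. Ctsl, at 3911, 3951, 1737 and 1389 CPM in Arg1+ cells and 631, 602, 372 and 438 CPM in Cxcl9+ cells, was among the most abundant of these. Cav1 stood at 15.6, 26.7, 96.3 and 86.4 CPM against 2.85, 3.42, 12.9 and 13.4 CPM, so its level was higher in MC38 in both classes.

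On the lower side the most extreme named gene was Dnase1l3, a secreted DNase, at 1.34, 0.51, 1.35 and 3.23 CPM in Arg1+ cells and 45.1, 39.1, 101 and 115 CPM in Cxcl9+ cells. Its log2 fold was -5.52 ± 0.20 (edgeR adjusted p = 2.2e-06). H2-Ab1 measured 658, 598, 966 and 1641 CPM against 2455, 3387, 4628 and 5692 CPM, with no overlap between the classes and a log2 fold of -1.99 ± 0.13. Gbp2, a guanylate-binding protein induced by interferon, measured 23.9, 27.6, 110 and 181 CPM against 186, 198, 550 and 466 CPM (log2 fold -2.19 ± 0.23). The membrane proteins Tmem176a and Tmem176b were lower by log2 folds of -2.81 and -2.53. Serpina3g, Calhm6, Klrb1b, H2-Eb1, H2-DMb1, the complement factor gene Cfb and the noncoding AW112010 completed the list.

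**Figure D3:**
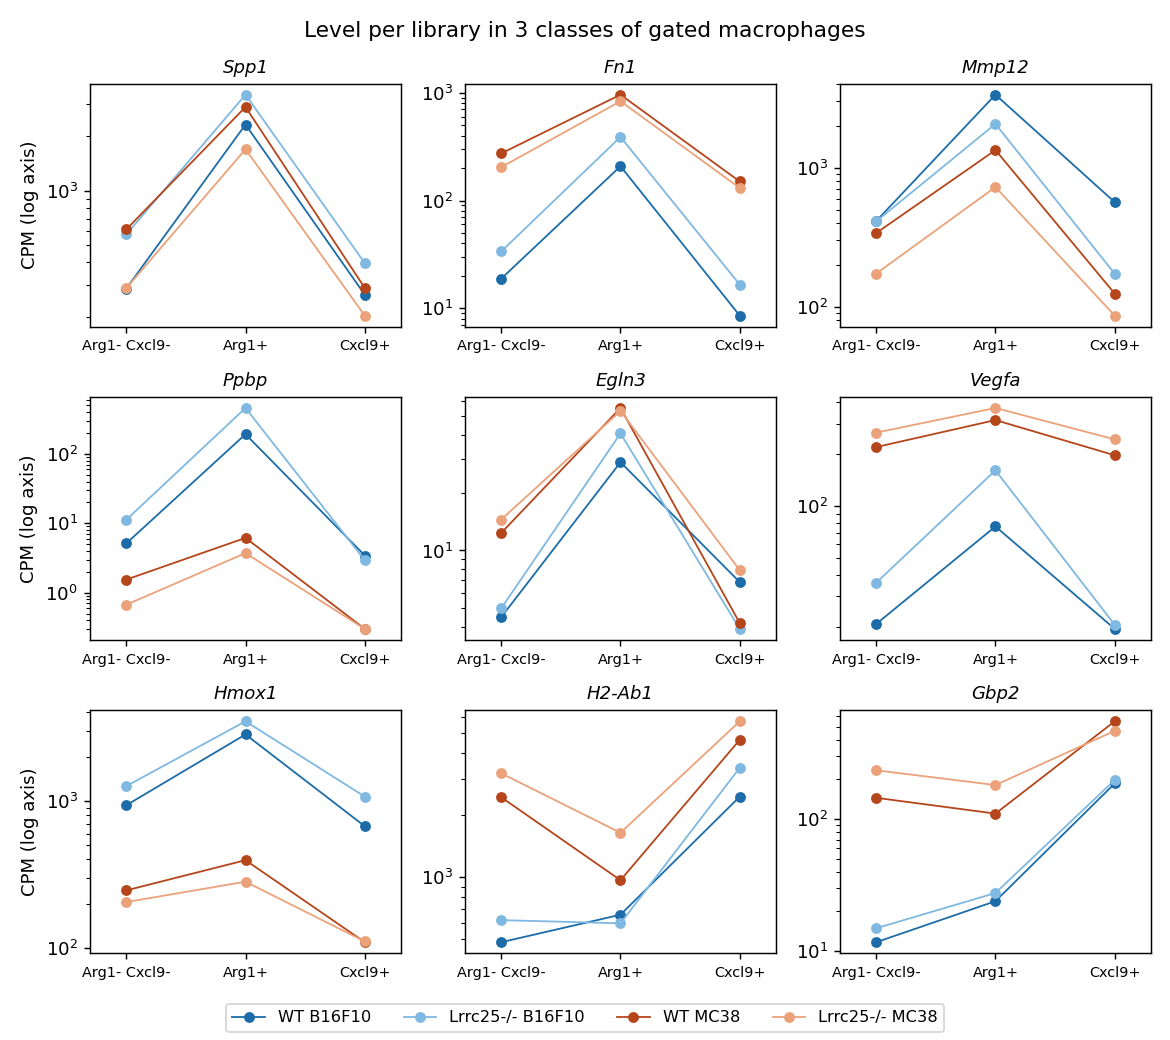
CPM (vertical axis, log scale, zeros drawn at 0.3) of named genes in Arg1+ cells, cells with neither Arg1 nor Cxcl9, and Cxcl9+ cells, with 1 point for each of the 4 libraries. Spp1 is at 1693 CPM or more in every Arg1+ point and at 396 CPM or less in every Cxcl9+ point, whereas the B16F10 and MC38 points of Ppbp lie far apart.

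Macrophages with neither gene gave a second reference, which shares the same Arg1+ sums and so is no separate replicate. Of 12084 genes tested with edgeR, 767 were higher in Arg1+ cells (6.35%) and 509 lower (4.21%), with a median log2 fold of 0.03 over all genes. This contrast leaned on the B16F10 libraries. Without WT B16F10 150 genes were higher and 137 lower, and without Lrrc25-/- B16F10 83 were higher and 54 lower. The lower side was 303 without the Lrrc25-/- MC38 library.

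Spp1 measured 286, 571, 609 and 288 CPM in cells with neither gene, and its log2 fold in Arg1+ cells was 2.87 ± 0.17 (SE, 4 libraries; edgeR adjusted p = 0.00079). Ppbp (5.12, 11.2, 1.54 and 0.67 CPM in that reference) had a log2 fold of 5.39 ± 0.37 in the fit. Its own log2 folds in the libraries averaged 3.30 with an SD of 2.09. Fn1 had a log2 fold of 2.98 ± 0.32, Mmp12 one of 2.62 ± 0.20 and Cxcl3 one of 2.52 ± 0.39. Slpi, Cav1, Sdc1, Rgcc, the calcium channel gene Cacna1d and the coagulation factor gene F10 followed, with log2 folds between 2.09 and 2.65. Without the Lrrc25-/- B16F10 library F10 no longer passed. Nos2, inducible nitric oxide synthase, measured 18.0, 13.7, 151 and 257 CPM in Arg1+ cells and 1.24, 1.45, 45.7 and 76.8 CPM in cells with neither gene. Its log2 fold was 2.71 ± 0.34 (edgeR adjusted p = 0.0048). Against Cxcl9+ cells, at 25.7, 36.1, 85.2 and 167 CPM, it was 0.23 ± 0.31 and did not pass, being lower in Arg1+ cells of both B16F10 libraries and higher in those of both MC38 libraries.

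In B16F10 the reference of this contrast held more tumor RNA than the Arg1+ cells, and the part of that in the lower side was not tested. Summed melanoma markers in the cells with neither gene were 5152 and 5509 CPM in B16F10, against 1483 and 1626 CPM in Arg1+ cells. In MC38 they were 119 and 62.3 CPM against 89.2 and 67.7 CPM. The 12 named lower genes were lower in MC38 too, but the naming rule required the same direction in every library, which fixed this in advance. Slc24a5, a pigment cell transporter, measured 133 and 152 CPM in the reference in B16F10 and 31.7 and 48.6 CPM in Arg1+ cells. Sparc, a matrix glycoprotein, stood at 198, 202, 49.3 and 260 CPM against 65.6, 62.7, 34.7 and 40.9 CPM. In cells of 3000 to 15000 UMIs 9 of the 12 named lower genes no longer passed, among them Slc24a5 (log2 fold -1.50, then -0.47), Mgll (-1.70, then -0.28) and Phgdh (-1.34, then -0.25). A screen of each cell kept those with at least 2 UMIs of Csf1r, Adgre1 and Cd68 together and melanoma markers at most 1% of UMIs. It also took out cells with any UMI of Sox9 or Crabp2, and after it 8 of the 12 no longer passed. Sparc and Tm4sf1 also failed without either B16F10 library, Fdps without Lrrc25-/- B16F10 and Tm4sf1 without Lrrc25-/- MC38. Tmem176a and Tmem176b passed in both of these cell sets, at log2 folds of -3.22 and -2.94 in the first and -2.83 and -2.74 in the second.

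Genes of glycolysis and of the response to low oxygen rose as a group. Of 37 measured, 30 were higher against Cxcl9+ cells and none was lower, with a median log2 fold of 1.18 against 0.01 over all genes. Leaving out a library gave between 28 and 30. With the other reference it was 23 of 38 and none lower (median 0.74 against 0.03), a count of 10 without WT B16F10 and 6 without Lrrc25-/- B16F10, but 30 in cells of 3000 to 15000 UMIs. Egln3, the oxygen-sensing prolyl hydroxylase, measured 28.8, 40.6, 55.0 and 53.1 CPM in Arg1+ cells, 4.50, 5.00, 12.3 and 14.5 CPM in cells with neither gene and 6.85, 3.91, 4.19 and 7.89 CPM in Cxcl9+ cells. The lowest Arg1+ library was above all the others, and the log2 fold was 3.08 ± 0.21 against Cxcl9+ cells (edgeR adjusted p = 5e-05).

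Vegfa, the vascular growth factor, measured 76.3, 162, 316 and 372 CPM in Arg1+ cells and 19.4, 20.5, 198 and 244 CPM in Cxcl9+ cells, a log2 fold of 1.46 ± 0.33. Its contrast with cells of neither gene was larger in B16F10 than in MC38, by 1.53 ± 0.16 on the log2 scale (edgeR adjusted p = 2.7e-05). Slc2a1, the glucose transporter GLUT1, measured 272, 245, 144 and 135 CPM against 98.2, 46.4, 72.7 and 89.8 CPM. Bnip3, which directs mitochondria to breakdown, measured 386, 322, 282 and 286 CPM against 123, 66.4, 75.7 and 86.0 CPM, with no overlap between the classes (log2 fold 2.01 ± 0.12). Ldha, which makes lactate, measured 2389, 2103, 936 and 834 CPM against 1201, 960, 475 and 464 CPM. Adm, at 27.4, 17.8, 4.06 and 3.99 CPM in Arg1+ cells, was low in MC38, and Hilpda, which protects lipid droplets from lipolysis, was abundant at 1283, 1571, 475 and 536 CPM.

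Because these genes rose together, the 250 bases before their start sites are shown, from RefSeq on GRCm38.p6, 5′ to 3′ on the gene's strand. Capitals mark ACGTG on either strand, the core letters that hypoxia-inducible factors bind; in Bnip3 they run to CACGTG, which reads the same on both strands and is also the E-box of other factors. Egln3 and Adm were the hypoxia genes with the greatest log2 folds against cells with neither gene, and Slc2a1 and Bnip3 were added because their windows hold ACGTG.
Egln3, chr12:54203875-54204124, minus strand: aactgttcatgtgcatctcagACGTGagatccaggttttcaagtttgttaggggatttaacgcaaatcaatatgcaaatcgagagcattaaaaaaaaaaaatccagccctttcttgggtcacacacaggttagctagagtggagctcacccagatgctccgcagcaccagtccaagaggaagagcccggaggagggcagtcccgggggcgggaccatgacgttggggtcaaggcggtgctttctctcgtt
Adm, chr7:110627407-110627656, plus strand: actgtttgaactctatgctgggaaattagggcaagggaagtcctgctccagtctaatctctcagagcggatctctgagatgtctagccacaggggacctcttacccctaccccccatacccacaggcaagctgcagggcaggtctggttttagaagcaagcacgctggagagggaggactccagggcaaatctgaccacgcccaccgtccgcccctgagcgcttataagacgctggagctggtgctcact
Slc2a1, chr4:119108495-119108744, plus strand: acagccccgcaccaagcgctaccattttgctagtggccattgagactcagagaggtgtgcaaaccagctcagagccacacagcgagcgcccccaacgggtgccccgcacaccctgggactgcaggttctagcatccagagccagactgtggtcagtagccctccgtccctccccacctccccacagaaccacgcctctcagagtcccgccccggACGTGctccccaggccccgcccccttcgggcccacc
Bnip3, chr7:138909507-138909756, minus strand: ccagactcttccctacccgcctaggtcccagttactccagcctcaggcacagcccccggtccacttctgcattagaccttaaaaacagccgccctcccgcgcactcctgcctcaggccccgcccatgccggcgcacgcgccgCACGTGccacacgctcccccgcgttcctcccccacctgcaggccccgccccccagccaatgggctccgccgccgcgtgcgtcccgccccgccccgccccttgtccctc
The Adm window has no ACGTG, nor do those of Hilpda and Vegfa, which says nothing about GCGTG or about sites elsewhere. The Adm window does hold GCGTG on the other strand. The ACGTG form stood in 12 of the 20 hypoxia genes called higher against cells with neither gene that had an entry (60.0%). It stood in 16.6% of all 27025 promoter windows, in 22.2% of the tested genes' windows and in 21.1% of those of all genes higher in Arg1+ cells. A match of letters is a description and not a binding site.

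Lipid handling genes, a program often described in tumor macrophages, were also higher. Against Cxcl9+ cells 13 of 20 were higher and 1, the nuclear receptor gene Pparg, was lower (median log2 fold 0.87 against 0.01 over all genes). For cells with neither gene as reference it was 14 of 20 (median 0.85 against 0.03), and 4 without either B16F10 library. Cd36, a fatty acid and lipoprotein receptor, measured 388, 490, 153 and 68.4 CPM in Arg1+ cells and 92.5, 150, 28.2 and 20.5 CPM in Cxcl9+ cells (log2 fold 2.10 ± 0.13). Gpnmb, a glycoprotein of lysosomes that melanoma cells also make, was at 814, 847, 121 and 94.6 CPM against 297, 270, 22.1 and 18.8 CPM. In B16F10 its level in cells with neither gene, 765 and 855 CPM, was close to that in Arg1+ cells. Trem2, a lipid-sensing receptor, differed less, at 622, 607, 356 and 423 CPM against 431, 385, 228 and 286 CPM (log2 fold 0.73 ± 0.08).

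Targets of the oxidant sensor Nrf2 were higher in 13 of 17 against Cxcl9+ cells (median log2 fold 1.17 against 0.01), with 13 or 14 whichever library was left out. The other contrast gave 12 of 18 (median 0.94 against 0.03), but 1 without either B16F10 library. Hmox1, the heme-degrading oxygenase, measured 2829, 3477, 396 and 283 CPM in Arg1+ cells and 673, 1070, 110 and 111 CPM in Cxcl9+ cells (log2 fold 1.87 ± 0.13, edgeR adjusted p = 5.8e-05). The Arg1+ cells of MC38 were thus below the Cxcl9+ cells of B16F10, although each was above the Cxcl9+ cells of its own library. Srxn1 and Gclm, which restore peroxiredoxins and make glutathione, had log2 folds of 1.61 and 1.46.

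Among chemokines for myeloid cells 7 of 14 were higher against Cxcl9+ cells and Ccl8 was lower (median log2 fold 1.18 against 0.01 over all genes). Cxcl2 measured 8530, 14289, 5544 and 5286 CPM in Arg1+ cells and 3593, 4001, 3477 and 2637 CPM in Cxcl9+ cells, and Cxcl1 1587, 2909, 671 and 561 CPM against 750, 677, 317 and 249 CPM. Both attract neutrophils through CXCR2. The monocyte chemokine Ccl2 did not pass, at 4995, 4368, 642 and 483 CPM against 5577, 4338, 483 and 353 CPM. Inflammatory mediators were higher in 11 of 19 and lower in 2, Il12b and Il1r2 (median 0.73). Il1a measured 346, 561, 167 and 119 CPM against 170, 153, 90.6 and 45.4 CPM (log2 fold 1.43 ± 0.15), while Tnf, at 482, 755, 41.4 and 33.8 CPM against 391, 368, 109 and 69.7 CPM, and Il1b did not pass. Against cells with neither gene 8 of 14 chemokines (5 without either B16F10 library) and 9 of 20 mediators were higher. The mediator count was 2 without WT B16F10 and 1 without Lrrc25-/- B16F10.

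Matrix and vessel genes were higher in 14 of 29 and lower in 2, Plau and Tgfbi, against Cxcl9+ cells (median log2 fold 0.86 against 0.01). The lower count was 1 without either WT library and 3 without Lrrc25-/- MC38. Mmp13, a collagenase, measured 390, 216, 172 and 73.8 CPM in Arg1+ cells and 171, 108, 70.0 and 33.4 CPM in Cxcl9+ cells (log2 fold 1.28 ± 0.09). Mmp8, the collagenase best known from neutrophils, measured 50.2, 62.1, 50.8 and 12.9 CPM against 6.28, 3.42, 2.66 and 0.99 CPM. Thrombospondin-1 (Thbs1) measured 374, 841, 1293 and 1068 CPM against 55.4, 101, 634 and 597 CPM. Against cells with neither gene the count was 15 of 32 with Sparc lower, and 8 without Lrrc25-/- B16F10.

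Among arginine genes other than Arg1, 3 of 15 were higher against Cxcl9+ cells (Arg2, Slc7a2 and Sms) and 2 lower (Gatm and Slc7a7), with a median log2 fold of -0.04. The higher count was 1 without WT B16F10 or without Lrrc25-/- MC38. Against cells with neither gene 5 of 16 were higher (Nos2, Slc7a2, Arg2, Ass1 and Sms) and none lower, with a median of 0.28 against 0.03, but 3 were higher without WT B16F10 or Lrrc25-/- MC38 and 2 without Lrrc25-/- B16F10. Slc7a2, an arginine transporter, measured 28.5, 31.2, 304 and 265 CPM in Arg1+ cells and 15.99, 7.32, 248 and 177 CPM in Cxcl9+ cells. Ass1, which rebuilds arginine from citrulline, had a log2 fold of -0.45 against Cxcl9+ cells, which did not pass, and of 0.84 against cells with neither gene, which did. Odc1, which turns ornithine into polyamine, passed in neither contrast. Among alternative activation genes, with which Arg1 is often grouped, 2 of 18 were higher against Cxcl9+ cells (Folr2 and Klf4; 4 without WT MC38) and 5 lower, among them the lectin gene Mgl2 at 65.0, 30.1, 49.1 and 25.7 CPM against 299, 236, 143 and 88.6 CPM. Relative to cells with neither gene 5 of 20 were higher (Ccl24, Chil3, Msr1, Folr2 and Klf4) and Mgl2 was lower, but 1 was higher without either B16F10 library. Mrc1, the mannose receptor, measured 322, 282, 489 and 436 CPM against 392, 455, 407 and 316 CPM and passed in neither contrast.

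Antigen presentation set Arg1+ cells apart from the Cxcl9+ arm. All 8 measured MHC class II genes were lower (median log2 fold -1.85), and 11 of 20 class I genes were lower with none higher (median -0.56). Relative to cells with neither gene, 5 of 20 class I genes were higher and none lower (median 0.35 against 0.03), but none without either B16F10 library and 1 without Lrrc25-/- MC38. Cd74, the invariant chain, measured 1829, 1489, 3686 and 5724 CPM against 5745, 7533, 12762 and 15842 CPM, a log2 fold of -1.68 ± 0.15. The interferon gamma list was lower in 14 of 19 with none higher (median -1.22). Neither its direction nor that of the class I and class II genes against Cxcl9+ cells is independent evidence. The rule sorted the cells by Cxcl9, a gene of the interferon gamma response. Against cells with neither gene none of 9 class II genes was called with edgeR, and H2-Ab1, at 484, 619, 2439 and 3185 CPM there, had a log2 fold of -0.21 ± 0.28. That value joins unlike models, since H2-Ab1 was higher in Arg1+ cells than in the reference in WT B16F10 and lower in both MC38 libraries. In cells of 3000 to 15000 UMIs 4 class II genes were lower. That window did not equalize depth in MC38, where Arg1+ cells had medians of 5470.5 and 7192.5 UMIs and the reference 4568 and 5309.

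Genes of monocyte-derived cells were higher in 7 of 14 and lower in 3 against Cxcl9+ cells (median log2 fold 1.26 against 0.01), and in 8 of 14 against cells with neither gene (median 1.00). That second count was 3 without WT B16F10 and 1 without Lrrc25-/- B16F10. Besides Fn1 and Thbs1 these were S100a4, S100a6, S100a10 and F13a1 in both contrasts. The monocyte receptor Ccr2, at 9.14, 22.1, 30.8 and 23.3 CPM, passed in neither. Genes of resident-like macrophages went both ways, with 5 higher and 4 lower of 15 against Cxcl9+ cells. Folr2 and Pf4 were among the higher ones and Cx3cr1 among the lower ones.

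**Figure D4:**
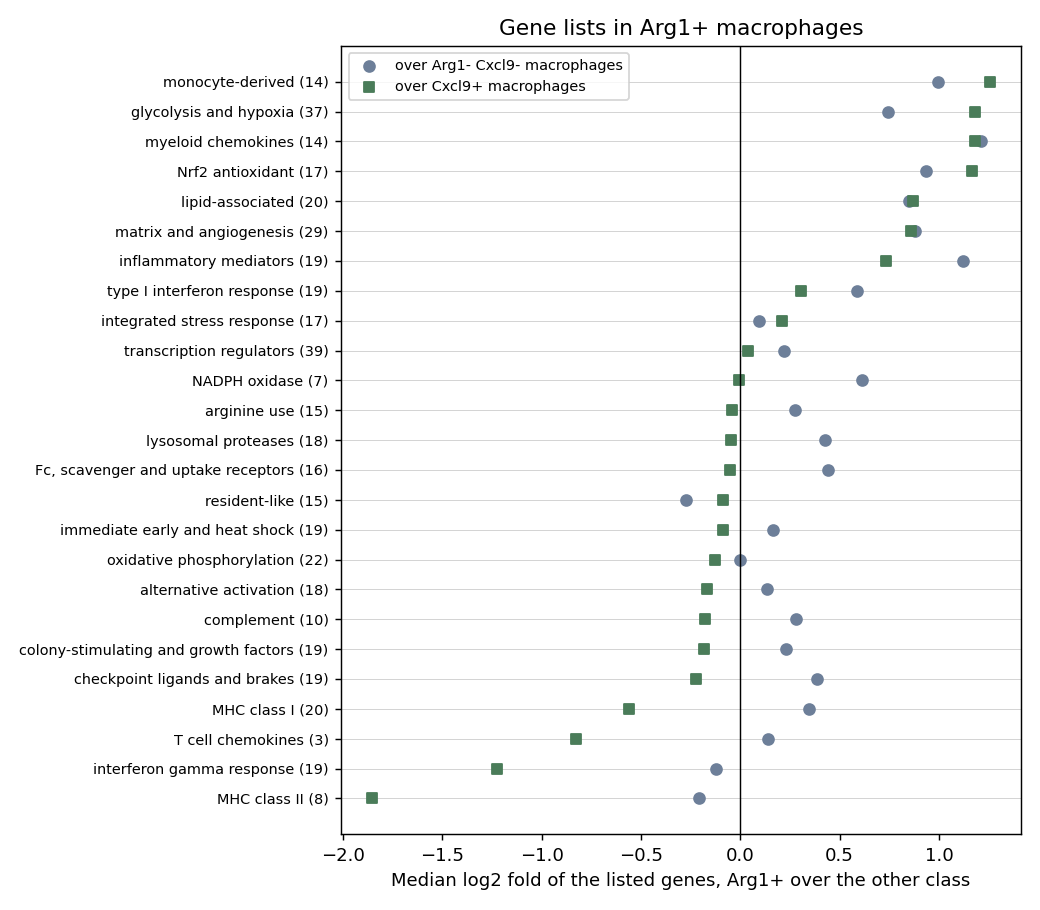
Median log2 fold (horizontal axis) of each gene list in Arg1+ cells, against cells with neither Arg1 nor Cxcl9 (circles) and against Cxcl9+ cells (squares), with the number of genes measured in the second contrast in parentheses. The glycolysis and hypoxia list lies at 0.74 and 1.18, and MHC class II at -0.21 and -1.85.

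Whether the contrast with cells of neither gene was alike in both models was tested directly, with 2 libraries on each side. Of 13169 genes, edgeR called 727 in which it was larger, or less negative, in MC38 (5.52%) and 813 in which it was smaller (6.17%), with a median difference of 0.09. Without WT B16F10 98 and 323 were called, and without Lrrc25-/- B16F10 124 and 301. Without WT MC38 1156 were larger in MC38, and without Lrrc25-/- MC38 1348.

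Much of the secreted program was set off more strongly from the reference in B16F10. The difference of log2 folds, MC38 minus B16F10, was below 0 and passed in 17 of 20 inflammatory mediators (median -1.24), 12 of 15 myeloid chemokines (median -1.16) and 17 of 32 matrix genes (median -0.69). Cxcl3 measured 1474 and 2522 CPM in Arg1+ cells of B16F10 against 155 and 341 CPM in the reference, but 429 and 381 CPM against 262 and 93.9 CPM in MC38, a difference of -1.72 ± 0.29. Thbs1 and Tnf differed by -2.56 ± 0.19 and -2.11 ± 0.16, and Il10, the anti-inflammatory cytokine, by -2.20 ± 0.16. Tnf in MC38 was lower in Arg1+ cells than in the reference, at 41.4 and 33.8 CPM against 85.8 and 78.4 CPM. Spp1 did not pass, with a difference of -0.38 ± 0.17.

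Class II genes and the oxidative phosphorylation list also differed between models. H2-Ab1 differed by -1.33 ± 0.18, and 4 of 9 class II genes passed with a difference below 0. For oxidative phosphorylation 16 of 22 genes had a difference above 0 (median 0.62 against 0.09 over all genes). Pmel, a melanosome protein of the tumor cells, was among the named genes with a larger fold in MC38, but it passed in neither of the 2 alternative cell sets nor without any 1 of 3 libraries, among them both B16F10 ones. Tumor RNA in the B16F10 reference moved with these differences. Summed neutrophil markers did as well, at 187 and 219 CPM in Arg1+ cells against 57.1 and 92.7 CPM in the reference in B16F10, and 60.2 and 64.8 CPM against 95.6 and 107 CPM in MC38. Depth was unlike in the 2 classes of MC38, with medians of 4865 and 6707 UMIs in Arg1+ cells and 2781 and 2922 in the reference. In B16F10 the medians were 8206 and 8692 against 8212 and 8199. The part of tumor RNA, neutrophil markers or depth was not tested.

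Arg1+ cells of the 2 models differed widely. Of 12166 genes, edgeR called 3847 higher (31.6%) and 3558 lower (29.2%) in MC38 than in B16F10, with genotype as a second term and 1 residual degree of freedom. The named genes lowest in MC38 were Dct, Tyrp1, Mlana, Ptgds and Pmel. They averaged 433, 166, 274.5, 189 and 590 CPM in B16F10 and 0.7 CPM or less in MC38. All but Ptgds are among the melanoma markers summed above, so the models differed in tumor RNA. They also differed in RNA quality signs and host. Malat1, a nuclear RNA, was at 761, 782, 14422 and 13677 CPM, and the mitochondrial shares are given above. The part of these in the list differences below was not tested.

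Against that background 14 of 15 myeloid chemokines were lower in MC38 (median log2 fold -2.39 against 0.05 over all genes), with Cxcl14 higher. Lower values were also found for 17 of 20 lipid genes with Abca1 higher (median -1.52), 14 of 18 Nrf2 targets with Slc7a11 higher (median -1.19), 26 of 38 hypoxia genes with 5 higher (median -0.99), 21 of 22 oxidative phosphorylation genes (median -1.11) and 16 of 17 genes of the integrated stress response (median -1.61). Lpl, which frees fatty acids from lipoproteins, measured 306, 233, 31.8 and 7.70 CPM, a log2 fold of -4.42 ± 0.30. Fabp5, a fatty acid carrier, measured 5507, 3582, 1040 and 1517 CPM. Interferon gamma genes went up in 15 of 19 with 2 lower (median 1.56), and class II genes in 6 of 9 (median 0.86). Nos2 and Slc7a2 were higher in MC38, with log2 folds of 3.30 and 2.84. Cells with Cxcl9 had been removed from these sums in both models.

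Loss of Lrrc25 gave few calls over both models. Of 12166 genes, edgeR called 9 (0.074%), 4 higher and 5 lower in Lrrc25-/- cells, with tumor model as a second term and 1 residual degree of freedom, 451 had an unadjusted p under 0.05, and DESeq2 called 4. That fit takes a genotype effect of opposite sign in B16F10 and MC38 as error. In data simulated with 1 dispersion for all genes it recovered 10.4% of 1.5-fold and 74.6% of 2-fold changes. Small differences would thus mostly be missed. After Lrrc25 itself (log2 fold -5.08 ± 0.22), the gene that met the naming rule was Mgl2, at 65.0 and 30.1 CPM in B16F10 and 49.1 and 25.7 CPM in MC38 (log2 fold -1.04 ± 0.17, edgeR adjusted p = 0.022). Mgl2 did not pass with DESeq2, nor with Arg1 of at least 5 UMIs, nor after the marker screen. Named after their values were seen, the rest were Slpi, Lyz1, Ly6i and Gm21860 on the higher side and Mmp13, Ndufa4l2 and Mgp on the lower. Slpi, an inhibitor of neutrophil proteases, measured 206 and 456 CPM in B16F10 and 46.3 and 150 CPM in MC38 (log2 fold 1.39 ± 0.21, edgeR adjusted p = 0.0097). Mmp13 measured 390 and 216 CPM and then 172 and 73.8 CPM (log2 fold -1.06 ± 0.19).

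Within 1 model there was 1 pool of each genotype, so genes were sorted by size alone. A gene counted as higher or lower at 20 CPM or more in either library, 50 or more UMIs and at least 1.5-fold after adding 1 CPM. In B16F10, 219 of 4427 genes were higher in Lrrc25-/- Arg1+ cells (4.95%) and 71 lower (1.60%), with a median log2 ratio of 0.05. In cells of 3000 to 15000 UMIs 354 were higher and 123 lower. In MC38, 47 of 5645 were higher (0.833%) and 128 lower (2.27%), with a median of -0.04. Scaling by TMM, edgeR's library factors, gave 60 higher and 95 lower in MC38. Of 3954 genes measured in both models, 1 was higher in both (Slpi) and 4 were lower in both (Lrrc25, Mgl2, Mmp12 and Mmp13). More went in opposite directions, with 12 higher in B16F10 and lower in MC38, among them Il10, and 3 the reverse (AW112010, Cryab and Per1). Mmp12 measured 3355 and 2067 CPM in B16F10, a ratio of 0.616 (exact 95% interval 0.602 to 0.631), and 1340 and 726 CPM in MC38, a ratio of 0.542 (0.528 to 0.556).

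In B16F10 the Lrrc25-/- library stood higher in inflammatory and oxidant-response genes. Its members also carried more Arg1, with medians of 8 UMIs in WT and 13 in Lrrc25-/-. The share with 20 or more Arg1 UMIs was 28.2% and 39.7%, and the part of this in the differences below was not tested. Of 16 inflammatory mediators 7 were higher and none lower (Il6, Ptgs2, Areg, Il1a, Tnf, Osm and Nlrp3; median log2 ratio 0.44 against 0.05), and of 17 Nrf2 targets 6 were higher and none lower (median 0.34). Ptgs2, the prostaglandin synthase COX-2, measured 117 and 253 CPM, a ratio of 2.16 (1.95 to 2.40). Tgm2, a protein cross-linking transglutaminase, had the highest named ratio, at 90.8 and 286 CPM (3.15, 2.81 to 3.54), and Thbs1 measured 374 and 841 CPM (2.25, 2.12 to 2.39). Of the arginine genes 3 of 12 were higher, namely Odc1, Arg2 and Slc3a2, and Odc1 measured 332 and 642 CPM (1.93, 1.82 to 2.06). Met, Apoc2, Ccl24, Lyz1 and Gclc were further named genes on the higher side.

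The lowest named ratio after Lrrc25 was that of Plcb1, a phospholipase C, at 524 and 21.4 CPM (0.0408, 0.0347 to 0.0478). It was also lower in the Lrrc25-/- pool in the cells with neither gene (513 and 7.86 CPM) and in Cxcl9+ cells (693 and 4.88 CPM). The acute phase gene Saa3 measured 526 and 163 CPM (0.310, 0.289 to 0.333), the neuropeptide gene Npy 96.7 and 24.0 CPM, and placental growth factor (Pgf) 57.5 and 11.4 CPM. Hypoxia genes showed no common direction here, with 1 higher of 34 (Vegfa) and 3 lower (Ankrd37, Ndrg1 and Adm), and in cells of 3000 to 15000 UMIs 6 higher and 2 lower.

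In MC38 the Lrrc25-/- library stood higher in class II genes. Of 6 class II genes 4 were higher (H2-Ab1, H2-Eb1, H2-Aa and Cd74; median log2 ratio 0.66 against -0.04 over all genes). H2-Ab1 measured 966 and 1641 CPM, a ratio of 1.70 (1.66 to 1.74), whereas in B16F10 its ratio was 0.909 (0.865 to 0.955). Ccl5, a T cell chemokine, measured 210 and 569 CPM (2.71, 2.60 to 2.83), Ccl8 335 and 751 CPM (2.24, 2.17 to 2.32) and Ifitm1, an interferon-induced membrane protein, 52.8 and 171 CPM (3.24, 2.98 to 3.52). Nos2 measured 151 and 257 CPM (1.70, 1.61 to 1.79).

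Of 19 lipid genes 3 were lower in MC38, namely Lpl, Cd36 and Spp1, and so were 5 of 26 matrix genes, among them Mmp8, Mmp12 and Mmp13, with none higher in either list. Their median log2 ratios were -0.19 and -0.04, against -0.04 over all genes. Spp1 measured 2901 and 1693 CPM (0.583, 0.573 to 0.594), Cd36 153 and 68.4 CPM (0.447, 0.410 to 0.485) and Mmp8 50.8 and 12.9 CPM (0.254, 0.211 to 0.305). None of 32 hypoxia genes and none of 17 Nrf2 targets passed the size rule in either direction. The median Arg1 UMIs of these members were 12 and 10, and their median depths 4865 and 6707 UMIs.

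**Figure D5:**
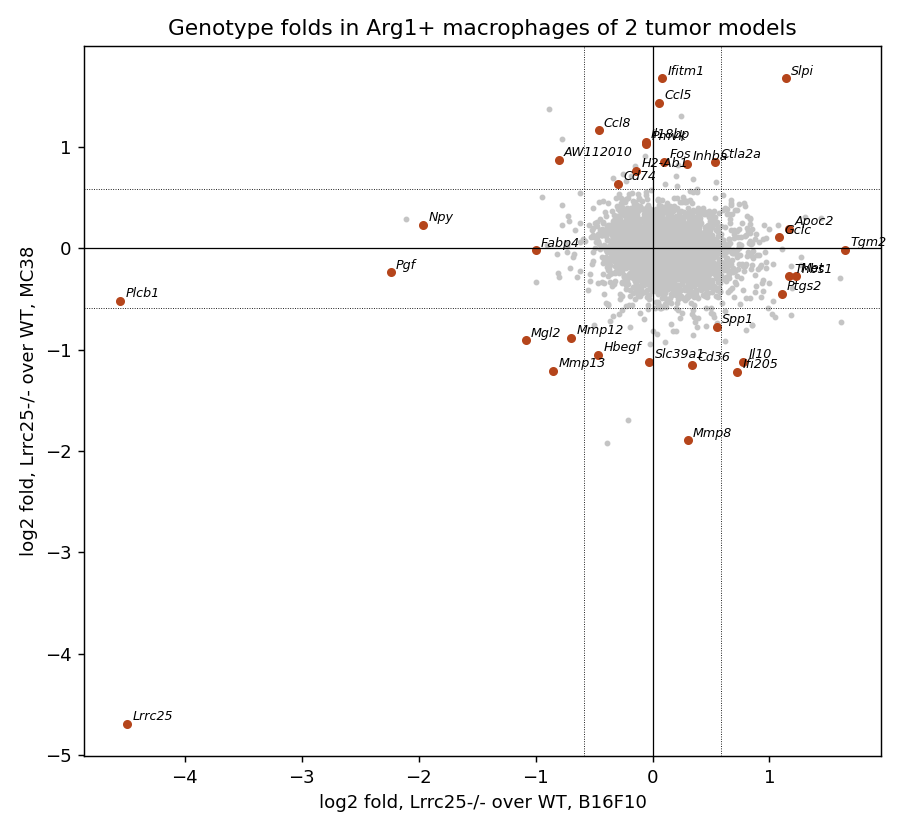
Log2 ratio of Lrrc25-/- over WT in Arg1+ cells of MC38 (vertical axis) against that in B16F10 (horizontal axis), 1 point for each gene measured in both models, with dotted lines at 1.5-fold. Lrrc25 lies far below on both axes, Slpi above on both, and Il10 and Ifi205 are higher in B16F10 and lower in MC38.

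A last fit asked whether the genotype difference was unlike in Arg1+ cells and in cells with neither gene. Of 13169 genes edgeR called 44 (0.334%), 4 above 0 and 40 below, again with 1 residual degree of freedom. In simulated data this fit recovered 6% of 1.5-fold and 20.9% of 2-fold changes. The named genes were Sox9, Timp3, Cryab, Sparc and Crip2, all below 0. Sox9, a transcription factor, measured 3.57, 3.60, 48.3 and 230 CPM in the cells with neither gene and 2.42, 1.90, 33.1 and 38.8 CPM in Arg1+ cells, so the high library lay in the reference. None of these 5 genes passed with DESeq2, in cells of 3000 to 15000 UMIs or with doublets removed.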

How the data were processed

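Single-cell 3' RNA libraries (SeekOne kit) were made from 4 tumor pools. The deposited tables hold counts, whole UMIs for 32285 genes per barcode, as the authors filtered them. The genome was mm10, per the submitters' processing notes, and the aligner and counter were not given in the sources used here. The members and gene lists were chosen with earlier results of these data known.

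UMIs were summed over the cells of each class and library and tested with edgeR 4.0.16 (R 4.3.3): TMM factors, filterByExpr, quasi-likelihood test, Benjamini-Hochberg adjustment over all genes tested, threshold 0.05. Comparisons of classes had library as a block. The 12 genes of the rule were left out, and a few items are not reported here. Gene lists numbered 25, with 461 genes, and lists of cell type markers, those of macrophages included, 17. Named genes were the 12 highest and 12 lowest log2 folds among calls, with at least 50 CPM in the higher class and 1 direction in every library, or groups that did not overlap. Within a model they were the 10 highest and lowest past the size rule, and each list added up to 4. Shares have exact Clopper-Pearson 95% intervals, and ratios of UMIs exact intervals, both for counting error only. The unit of replication was the pool.

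Alternatives were DESeq2 1.42.0, no low-count filter, no library term, cells of 3000 to 15000 UMIs, at most 10% mitochondrial UMIs, Arg1 of at least 5 UMIs, doublets removed, and leaving out each library. For the ratios within a model they included TMM scaling, a pseudocount of 5 and the mean of per-cell CPM. A macrophage screen was added after seeing the data. Doublets were kept in the main analysis. Scrublet (scanpy 1.11.5, Python 3.11.15) called 2.07% or fewer by its automatic threshold, so the alternative removed the highest scores at 0.5% per 1000 cells. The edgeR scripts were tested on simulated data.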

Additional observations from a re-analysis of the deposited data

Results flagged for a closer look

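For 13 of the genes named in the contrast of Arg1+ cells with macrophages of neither Arg1 nor Cxcl9, the log2 fold differed between the tumor models in a direct edgeR test with 2 libraries on each side. All these differences, given as MC38 minus B16F10, were below 0. They were -3.11 for Ppbp, -1.57 for Fn1, -1.78 for Nos2, -1.54 for Cav1, -0.64 for Mmp12, -1.65 for Slpi and -1.72 for Cxcl3. Sdc1 differed by -1.36, Rgcc by -1.11, Cacna1d by -0.65 and F10 by -1.70. For these 11 genes, all higher in Arg1+ cells over the 4 libraries, the contrast was thus larger in B16F10. Tmem176a and Tmem176b, which were lower in Arg1+ cells, differed by -2.33 and -1.60, so their contrast was larger in MC38. Arg1+ cells were deeper than the reference in MC38 and of like depth in B16F10, and the part of this was not tested.

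For 3 genes the Lrrc25-/- and WT pools differed in opposite directions in the 2 models by the size rule. The difference between the models was not tested for them, since each pairing had 1 pool. The log2 fold of Lrrc25-/- over WT in Arg1+ cells was 0.77 in B16F10 and -1.12 in MC38 for Il10, which encodes an anti-inflammatory cytokine. It was 0.72 and -1.22 for the interferon-induced gene Ifi205. For the noncoding gene AW112010 it was -0.80 and 0.87.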

How the results depend on the processing

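Against cells with neither gene, 767 higher and 509 lower genes became 1349 and 827 with no low-count filter and 0 and 0 with no library term. Lower genes were 210 in cells of 3000 to 15000 UMIs and 254 after the macrophage screen. Leaving out 1 library gave 83 to 869 higher and 54 to 665 lower genes. Against Cxcl9+ cells 737 higher and 653 lower genes became 5 and 2 with no library term, higher genes were 1304 with no filter, and lower genes were 426 to 491 with 1 library left out. For the difference between models, 727 and 813 genes became 282 and 390 with DESeq2, 1637 were larger in MC38 with no filter, and leaving out 1 library gave 98 to 1348 and 301 to 922. DESeq2 called 2322 genes lower in MC38 Arg1+ cells, against 3558. The 9 genotype calls became 4 with DESeq2, 38 with no filter, 41 in cells of 3000 to 15000 UMIs, 1 with Arg1 of at least 5 UMIs and 5 after the screen. The 44 calls of genotype by class became 1 with DESeq2, 19 in the 3000 to 15000 UMI cells, 2 with doublets removed and 103 with Arg1 of at least 5 UMIs, and Timp3 reversed from -1.50 to 0.40 after the screen. In the 3000 to 15000 UMI cells, Lrrc25-/- Arg1+ cells of B16F10 had 354 genes past the size rule upward and 123 downward, and 130 downward with Arg1 of at least 5 UMIs. In MC38 89 were higher by the mean of per-cell CPM. The causes were not tested.

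The share of Arg1+ cells was 8.95%, 18.5%, 47.0% and 28.4% after thinning, 7.60%, 15.2%, 32.99% and 16.01% with Arg1 of at least 5 UMIs, and 13.1%, 23.3%, 44.1% and 24.4% after the screen. Named genes kept direction and threshold in 266 of 287 gene and setting pairs against Cxcl9+ cells, the other 21 all with no library term, and in 240 of 288 against cells with neither gene. Settings that leave out a library gave no test for the differences between models or genotypes in Arg1+ cells, which then had no residual degrees of freedom. No paired analysis was possible because each group had 1 library, so replicate numbers pair no samples across groups; the contrasts of classes were blocked by library. Depth limits the lowest genes: members had medians of 4865 to 8692 UMIs.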

Other observations

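Genes of the type I interferon response were called in few members of the list. Against Cxcl9+ cells 6 of 19 were higher in Arg1+ cells and none lower (median log2 fold 0.31 against 0.01 over all genes), and 2 without either B16F10 library. Irf7, a transcription factor of this response, measured 103, 116, 107 and 84.3 CPM in Arg1+ cells and 48.0, 61.5, 91.7 and 71.0 CPM in Cxcl9+ cells, in the order WT B16F10, Lrrc25-/- B16F10, WT MC38 and Lrrc25-/- MC38. Its log2 fold was 0.71 ± 0.16 (SE, 4 libraries; edgeR adjusted p = 0.019). Rsad2, an antiviral enzyme, measured 220, 194, 215 and 193 CPM against 136, 155, 178 and 98.9 CPM. These genes thus stood on the other side from the interferon gamma list, whose direction the Cxcl9 term of the rule touches.

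Subunits of the phagocyte NADPH oxidase, which makes superoxide, were higher against macrophages with neither gene in 4 of 7 (among them Cybb and Ncf1; median log2 fold 0.61 against 0.03 over all genes). None was called without either B16F10 library, and 2 were without Lrrc25-/- MC38. Against Cxcl9+ cells none of 7 was higher, and Rac2 was lower, which it was not without either B16F10 library or without Lrrc25-/- MC38. Cybb measured 155, 220, 679 and 676 CPM in Arg1+ cells and 215, 277, 852 and 792 CPM in Cxcl9+ cells. Both contrasts share the Arg1+ sums. Lyve1, a hyaluronan receptor of tissue macrophages, measured 51.3, 43.1, 2.52 and 0.95 CPM in Arg1+ cells and was among the resident-like genes lower in MC38, with a log2 fold of -5.15 ± 0.25. The neuropeptide gene Npy, chosen after its values were seen, measured 96.7, 24.0, 30.2 and 35.6 CPM in Arg1+ cells and 1.14, 0.49, 1.14 and 1.58 CPM in Cxcl9+ cells, a log2 fold of 5.20 ± 0.24.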
